A study of Mus musculus with 6 samples.

Results

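Leydig cells owe their identity to a small set of transcription factors, and the 10 genes described here are that set and one of its products: Nr5a1, Nr5a2, Nr0b1, Gata4, Gata6, Nr2f1, Nr2f2, Wt1, Cebpb and Insl3. They were taken from the table by gene symbol, and 7 of the 10 were found among the 14774 genes of the count table. Nr5a2, Gata6 and Wt1 were not analysed here. SF-1, the nuclear receptor encoded by Nr5a1, binds the promoters of most steroidogenic genes, and DAX-1, encoded by Nr0b1, is a nuclear receptor without a DNA-binding domain that represses SF-1 activity. GATA4 acts on many of the same promoters, COUP-TFII (Nr2f2) marks Leydig progenitor cells and also acts in adult Leydig cells, and C/EBPβ (Cebpb) is induced by gonadotropin and cAMP. Insulin-like 3 (Insl3) is a peptide hormone that Leydig cells secrete, needed for descent of the testis, and serves as a marker of their differentiation.

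The libraries came from MA-10 cells, a line of mouse tumor Leydig cells carrying wild-type Star (n = 3), and from STARKO1 cells (n = 3), which were MA-10 cells in which Star had been targeted with CRISPR/Cas9. Neither group received a treatment, and both share the tumor origin of MA-10. STARKO1 was grown from a single cell, so an effect of the lost Star gene and a property of that clone cannot be told apart. The labels do not say that libraries of a group came from separate cultures, so p-values measure the spread between these libraries, which may be technical.

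Star, which encodes the steroidogenic acute regulatory protein and was the gene targeted, had 1064, 1261 and 697 counts in the MA-10 libraries and 48, 46 and 36 in the STARKO1 libraries, and fell by 5.09 on the log2 scale (SE 0.331, edgeR adjusted p = 0.00121). Total counts ran from 14114351 to 19530062 per library. The MA-10 libraries were unlike each other. MA-10 replicate 1 had Pearson correlations of log2 CPM across genes of 0.897 and 0.931 with the other MA-10 libraries and of 0.956 to 0.959 with the STARKO1 libraries, whereas STARKO1 libraries reached 0.993 to 0.994 among themselves. The 7SL RNA, an abundant noncoding RNA, made up 1.81% of MA-10 replicate 1, 14.4% of replicate 2, 6.63% of replicate 3 and 1.82% to 2.37% of the STARKO1 libraries. CPM, the usual depth-scaled unit of expression, was computed from each library's TMM-scaled total count, and every fold change below is STARKO1 over MA-10.

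The promoters of Insl3 and Nr0b1 are printed because SF-1 is known to act on both genes, one encoding the hormone and the other the repressor. They are RefSeq windows of build GRCm38.p6, from 250 bases before to 50 bases after the start site. Insl3 is at chr8:71689002-71689301 and Nr0b1 at chrX:86191525-86191824, both on the plus strand. Capitals mark the 6 letters AAGGTC, on either strand, in the Insl3 window and AGGTCA in the Nr0b1 window.
Insl3: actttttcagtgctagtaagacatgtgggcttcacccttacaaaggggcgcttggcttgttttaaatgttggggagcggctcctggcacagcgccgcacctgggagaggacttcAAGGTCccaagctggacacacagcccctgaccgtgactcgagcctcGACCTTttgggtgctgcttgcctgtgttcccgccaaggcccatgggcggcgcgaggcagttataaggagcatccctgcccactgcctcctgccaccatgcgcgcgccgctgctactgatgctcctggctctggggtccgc
Nr0b1: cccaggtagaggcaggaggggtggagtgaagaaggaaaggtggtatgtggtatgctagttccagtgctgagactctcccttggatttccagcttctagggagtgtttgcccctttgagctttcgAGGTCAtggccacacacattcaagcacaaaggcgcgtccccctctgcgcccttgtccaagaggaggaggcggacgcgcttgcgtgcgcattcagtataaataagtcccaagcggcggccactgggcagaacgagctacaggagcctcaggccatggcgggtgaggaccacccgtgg
The Insl3 window holds AAGGTC at its base 115 and, on the minus strand, at its base 161, and the Nr0b1 window holds AGGTCA at its base 125. These shortened forms of the SF-1 motif were chosen after the sequences were read, and 12.3% and 16.3% of all 32851 windows hold them on either strand. The full motif AAGGTCA (4.72% of windows), the GATA motifs AGATAA (11.2%) and TGATAA (9.05%) and the C/EBP motif TTGCGCAA (0.183%), searched on both strands, had no match in the windows of Insl3, Nr0b1, Cebpb, Nr2f2 and Nr2f1. AAGGTC and AGGTCA overlap each other within AAGGTCA. A match describes letters and was not tested as a binding site.

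None of the 7 genes was called different between STARKO1 and MA-10 cells, while Star, in the same libraries, was called lower. With edgeR's quasi-likelihood test and Benjamini-Hochberg adjustment over all genes, 0 of the 7 had an adjusted p under 0.05, against 9.04% of the 11939 genes tested. An unadjusted p under 0.05 was found for 1 of the 7, Nr0b1, against 37.6% of all genes. DESeq2 called 1 of the 7, again Nr0b1, against 24.9% of genes. The median log2 fold change of the 7 was 0.28, beside -0.05 over all genes tested. In 3 of them every STARKO1 library lay above every MA-10 library (21.5% of all genes), in 0 every MA-10 library lay above (21.0%), and in 4 the groups overlapped. All 7 passed the filter on low counts.

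**Figure D1:**
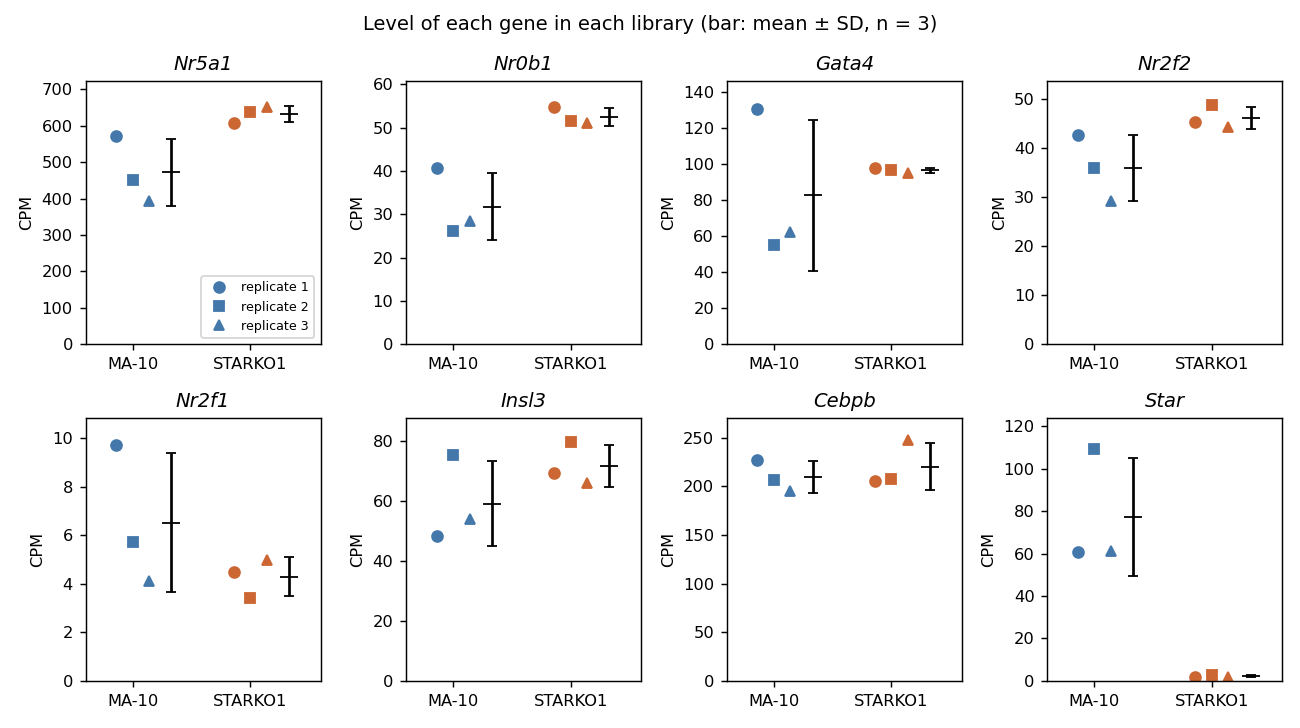
CPM (vertical axis, linear from 0) of the 7 genes and Star in each library of MA-10 (blue) and STARKO1 (orange), with circles, squares and triangles for replicates 1, 2 and 3 and bars for mean ± SD (n = 3). Nr5a1, Nr0b1 and Nr2f2 are higher in every STARKO1 library than in every MA-10 library, MA-10 replicate 1 is the highest of the MA-10 libraries for 6 of the 7 genes, and Star is near 0 in STARKO1.

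Nr5a1 (mouse build GRCm38, chr2:38692656-38714542, minus strand, 8 merged exons) encodes SF-1, the receptor on which the steroidogenic program depends. MA-10 replicates 1, 2 and 3 held 571, 452 and 392 CPM, and STARKO1 replicates 1, 2 and 3 held 608, 638 and 652 CPM. All STARKO1 libraries were above all MA-10 libraries, but MA-10 replicate 1 stood close to them. The mean was 472 ± 90.9 CPM (SD, n = 3) in MA-10 and 633 ± 22.8 CPM in STARKO1, a log2 fold change of 0.42 (SE 0.215, 95% interval -0.09 to 0.93, edgeR adjusted p = 0.189). The interval therefore covers no change and nearly a doubling. In these bulk libraries, fewer cells expressing a gene and less of its RNA per cell cannot be told apart.

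Nr0b1 (chrX:86191764-86195947, plus strand, 2 exons), the gene of the SF-1 repressor DAX-1, had the smallest adjusted p of the 7 with all libraries. It was at 40.6, 26.2 and 28.4 CPM in the MA-10 libraries and at 54.7, 51.6 and 51.1 CPM in the STARKO1 libraries. The groups did not overlap, and again MA-10 replicate 1 was nearest to STARKO1. From 31.7 ± 7.77 CPM to 52.5 ± 1.98 CPM (SD, n = 3) the log2 fold change was 0.72 (SE 0.203, 95% interval 0.24 to 1.21, edgeR adjusted p = 0.0642), short of the threshold. DESeq2 gave 0.76 with an adjusted p of 0.0146.

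Gata4 (chr14:63198922-63271692, minus strand, 10 merged exons), whose protein acts with SF-1 at steroidogenic promoters, varied most within MA-10. It was at 131, 55.2 and 62.1 CPM in MA-10 replicates 1, 2 and 3 and at 97.7, 96.9 and 95.2 CPM in STARKO1. MA-10 replicate 1 was above and the other MA-10 libraries were below all STARKO1 libraries. The coefficient of variation was 50.6% in MA-10 and 1.28% in STARKO1, and the log2 fold change was 0.22 (SE 0.335, 95% interval -0.57 to 1.02, edgeR adjusted p = 0.638).

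The COUP-TF genes stood at different levels. Nr2f2 (chr7:70351944-70366735, minus strand, 4 merged exons), encoding COUP-TFII, was at 42.7, 36.1 and 29.3 CPM in MA-10 and at 45.4, 48.8 and 44.4 CPM in STARKO1. All STARKO1 libraries were above all MA-10 libraries, with MA-10 replicate 1 and STARKO1 replicate 3 the nearest pair. Its log2 fold change was 0.36 (SE 0.181, 95% interval -0.07 to 0.79, edgeR adjusted p = 0.188). Nr2f1 (chr13:78188973-78199757, minus strand, 7 merged exons), encoding COUP-TFI, had only 170, 66 and 47 counts in MA-10 and 104, 58 and 89 in STARKO1. At 6.53 ± 2.89 and 4.30 ± 0.805 CPM (SD, n = 3) the groups overlapped, and the log2 fold change was -0.61 (SE 0.348, 95% interval -1.44 to 0.21, edgeR adjusted p = 0.229). Its exons share 123 bases, 2.4% of their length, with A830082K12Rik on the opposite strand. A830082K12Rik had 107, 647 and 309 counts in MA-10 and 64, 48 and 52 in STARKO1 and was called lower (log2 fold change -3.39, SE 0.741, edgeR adjusted p = 0.0405). The kit marks strand, but the strand setting of the counting is not given in the sources used here, so the part of these reads in the Nr2f1 count was not tested.

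Cebpb (chr2:167688915-167690418, plus strand, 1 exon), encoding the cAMP-responsive factor C/EBPβ, was the steadiest of the 7 across the MA-10 libraries. It was at 227, 207 and 195 CPM in MA-10 and at 205, 207 and 248 CPM in STARKO1. The groups overlapped, with a log2 fold change of 0.07 (SE 0.173, 95% interval -0.34 to 0.48, edgeR adjusted p = 0.780). Tmem189 shares 312 bases with it on the opposite strand, 20.7% of the Cebpb exon, and had 298 to 877 counts per library.

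Insl3 (chr8:71689214-71690575, plus strand, 2 exons), the hormone gene, was at 48.2, 75.3 and 54.0 CPM in MA-10 replicates 1, 2 and 3 and at 69.4, 79.6 and 66.0 CPM in STARKO1. MA-10 replicate 2 lay among the STARKO1 libraries and the other MA-10 libraries lay below them. With 59.2 ± 14.3 CPM in MA-10 and 71.7 ± 7.06 CPM in STARKO1 (SD, n = 3), the log2 fold change was 0.28 (SE 0.209, 95% interval -0.22 to 0.77, edgeR adjusted p = 0.349). Insl3 was the only one of the 7 in which MA-10 replicate 1 was the lowest MA-10 library. Of its exon bases, 404 (64.8%) are also exonic in Jak3 on the same strand, so counts could be split between the genes. Jak3 had 87, 12 and 12 counts in MA-10 and 203, 143 and 147 in STARKO1 (log2 fold change 1.79, edgeR adjusted p = 0.0826), and with both counts summed the log2 fold change was 0.38 (edgeR adjusted p = 0.188).

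MA-10 replicate 1 bore on most of these values. Against the mean of MA-10 replicates 2 and 3, it held 2.23 times as much Gata4, 1.97 times as much Nr2f1, 1.49 times as much Nr0b1 and 1.35 times as much Nr5a1, but 0.746 times as much Insl3. Without that library, 4 of the 7 genes were called higher in STARKO1. Of all 12167 genes tested, 4133 were called higher and 3857 lower, 65.7% in either direction. The 4 genes were Nr0b1 (log2 fold change 1.03, edgeR adjusted p = 0.00014), Gata4 (0.81, 0.000512), Nr5a1 (0.68, 0.00142) and Nr2f2 (0.59, 0.00333). Insl3, Cebpb and Nr2f1 were not called, at 0.24, 0.22 and -0.10. MA-10 replicates 2 and 3, the libraries left, correlated at 0.979. They also had the highest shares of 7SL RNA, 14.4% and 6.63%. Their TMM factors were 0.654 and 0.805, against 1.16 to 1.19 in the other libraries. Without MA-10 replicate 1, a difference between the lines and one in library composition therefore cannot be told apart. The GC content of the transcripts also moved the values: with GC offsets, the log2 fold change became 0.17 for Nr5a1, -0.12 for Insl3 and -0.36 for Cebpb. It became 0.58 for Nr0b1 and 0.06 for Gata4, and rose to 0.48 for Nr2f2. Nr2f1 moved further from 0, to -0.83 (95% interval -1.45 to -0.22, edgeR adjusted p = 0.0713).

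**Figure D2:**
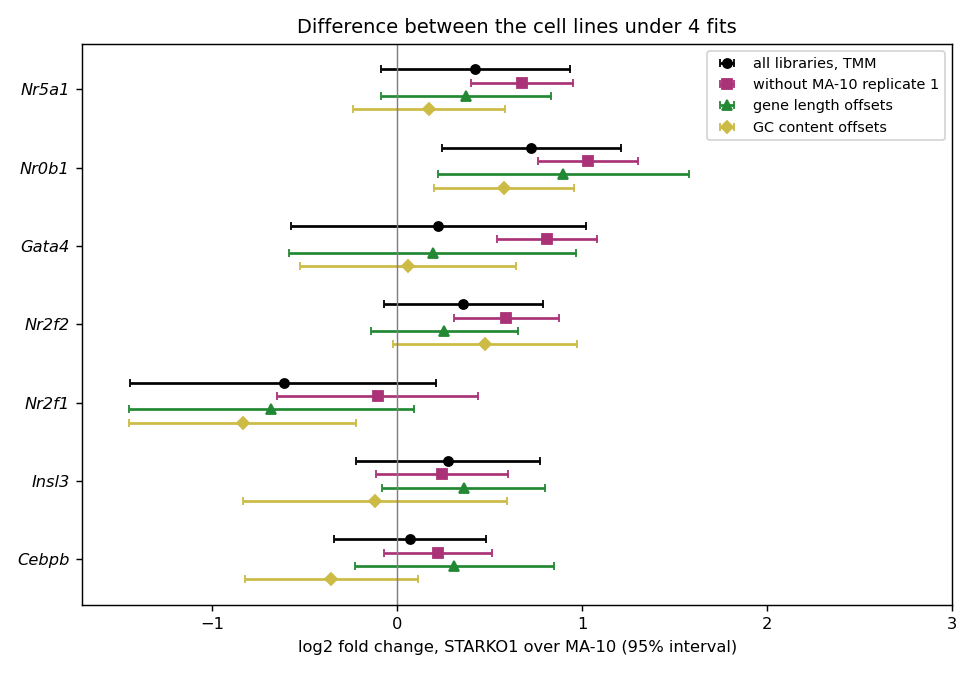
Log2 fold change of the 7 genes, STARKO1 over MA-10 (horizontal axis, points with 95% intervals), from all libraries with TMM (black circles), without MA-10 replicate 1 (purple squares), with gene length offsets (green triangles) and with GC content offsets (yellow diamonds). Without MA-10 replicate 1 the intervals of Nr5a1, Nr0b1, Gata4 and Nr2f2 lie above 0, and the points of Cebpb and Insl3 change side with GC content offsets.

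To set the genes side by side, levels were divided by the length of the merged exons. In MA-10 the order was Cebpb (139 ± 11.02 CPM per kb, SD, n = 3), Nr5a1 (111 ± 21.4), Insl3 (94.96 ± 22.9), Gata4 (21.2 ± 10.7), Nr0b1 (17.5 ± 4.30), Nr2f2 (4.18 ± 0.777) and Nr2f1 (1.28 ± 0.566). The libraries of Cebpb and Nr5a1, of Nr5a1 and Insl3, and of Gata4 and Nr0b1 overlapped, so these neighbours could not be ordered. In STARKO1 the order was Nr5a1 (149 ± 5.38 CPM per kb), Cebpb (146 ± 15.8), Insl3 (115 ± 11.3), Nr0b1 (29.0 ± 1.09), Gata4 (24.7 ± 0.316), Nr2f2 (5.36 ± 0.267) and Nr2f1 (0.844 ± 0.158), and only Nr5a1 and Cebpb overlapped. The place of Insl3 rests on a length of 623 bases, most of it shared with Jak3. SF-1, C/EBPβ and Insl3 transcripts thus formed an abundant tier in both lines, with Gata4 and Nr0b1 several-fold lower and the COUP-TF genes lowest.

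**Figure D3:**
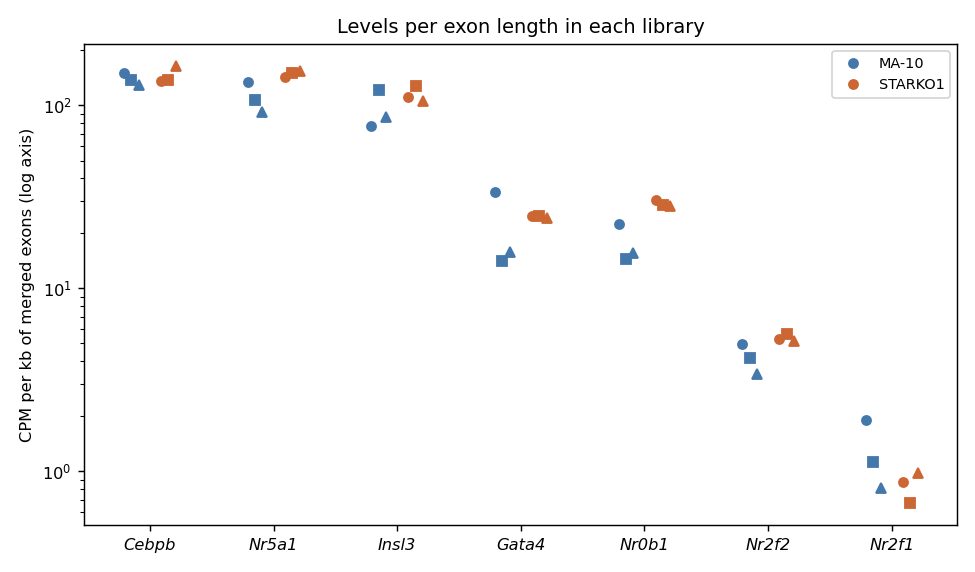
CPM per kb of merged exons (vertical log axis) of the 7 genes in the libraries of MA-10 (blue) and STARKO1 (orange), with circles, squares and triangles for replicates 1, 2 and 3. The gap between Insl3 and Gata4 is 4.48-fold between the MA-10 means.

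Ratios of counts within a library do not depend on the scaling, and 3 were compared with exact two-sided permutation tests over libraries, for which 0.1 is the smallest p that 3 against 3 allows. The planned ratio of Gata4 to Gata6 could not be formed here. There were 14.1, 17.3 and 13.8 Nr5a1 counts for each Nr0b1 count in MA-10 and 11.1, 12.4 and 12.8 in STARKO1. All MA-10 libraries were above all STARKO1 libraries, a difference of -0.31 on the log2 scale (exact p = 0.1, 0.3 after Benjamini-Hochberg adjustment over the 3 ratios).

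The ratio of Nr2f2 to Nr5a1 was the most even. It was 0.0749, 0.0798 and 0.0748 in MA-10 and 0.0747, 0.0765 and 0.0682 in STARKO1, although Nr5a1 itself ranged from 392 to 652 CPM. The groups overlapped (log2 difference -0.07, exact permutation p = 0.4, adjusted 0.6). These are ratios of counts without GC offsets, and the longest transcripts differ in GC content, 45.3% for Nr2f2 and 59.2% for Nr5a1. With GC content offsets, the log2 fold changes were 0.48 for Nr2f2 and 0.17 for Nr5a1, against 0.36 and 0.42 without. The log2 ratio of Insl3 to Nr5a1 was -3.56, -2.59 and -2.86 in MA-10 and -3.13, -3.00 and -3.30 in STARKO1. These overlapped too, with MA-10 replicates at both extremes (log2 difference -0.14, exact permutation p = 0.7, adjusted 0.7). The counts of this ratio had no GC offsets either, with which the log2 fold change of Insl3 was -0.12, against 0.28 without. Of the Insl3 exon bases, 64.8% are shared with Jak3, and the effect of this on the ratio was not tested.

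**Figure D4:**
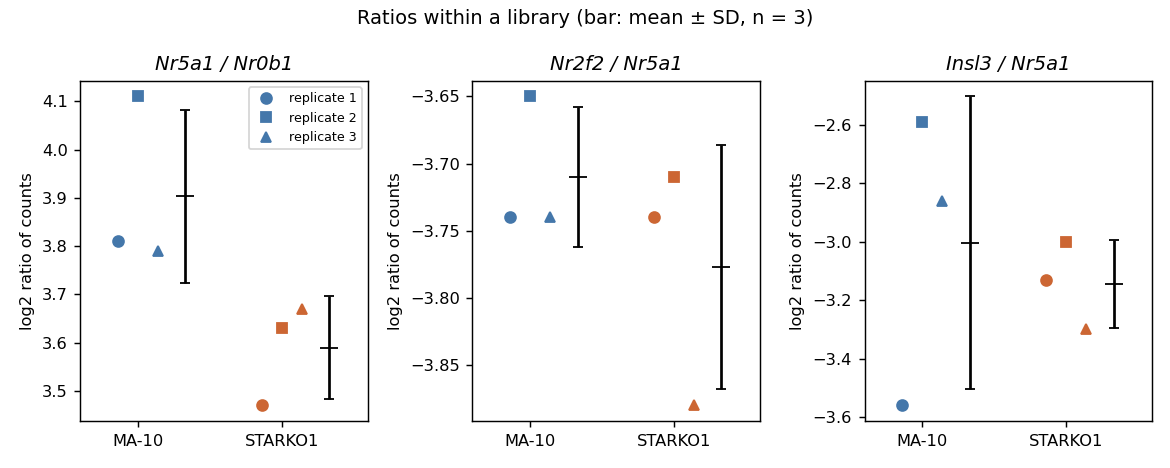
Log2 ratio of counts within each library (vertical axis, with a range of its own in each panel) for Nr5a1 to Nr0b1, Nr2f2 to Nr5a1 and Insl3 to Nr5a1, with circles, squares and triangles for replicates 1, 2 and 3 of MA-10 (blue) and STARKO1 (orange) and bars for mean ± SD (n = 3). The groups are apart for Nr5a1 to Nr0b1 and overlap for the other ratios.

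Across the 6 libraries, the genes with the profile most like that of Nr5a1 were Naip5, Smarcd1 and Usp5, with root mean square differences of centred log2 CPM of 0.0355, 0.0365 and 0.0406 among the 8219 genes that averaged 10 CPM or more. Of the other genes described here, Nr2f2 came next at rank 31 (0.068), then Nr0b1 at rank 1043 (0.196), and Insl3 was the most distant of those ranked, at 2798 (0.312). The genes most like Insl3 were Ada, Zfp185 and Ttc5 (0.069, 0.0746 and 0.0801). These 6 libraries share a source within each line, and the values are descriptions.

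Among relatives of the 7 genes, 3 were called. Of 16 genes listed for their GATA, NR2F, NR0B, C/EBP or relaxin family names, 9 were tested. Of these, 1 was called higher (4.30% of all genes) and 2 lower (4.74%), with a median log2 fold change of 0.20. Cebpg, a C/EBP family member that lacks an activation domain, fell from 130 to 42.9 CPM (log2 fold change -1.59, SE 0.295, edgeR adjusted p = 0.0265), and Cebpd fell by 0.88 on the log2 scale (edgeR adjusted p = 0.0484). Gata2 had 3, 1 and 1 counts in MA-10 and 14, 14 and 20 in STARKO1, which is at least 3.22-fold higher against the level of 3 counts in a library. Each of these 3 calls held without MA-10 replicate 1 and was lost in the other 5 of the 6 fits that leave out a library. The edgeR adjusted p rose to 0.151 for Gata2, 0.219 for Cebpd and 0.153 for Cebpg. Over these 6 fits the log2 fold changes ran from 2.48 to 3.24 for Gata2, -0.94 to -0.716 for Cebpd and -1.78 to -1.44 for Cebpg. Cebpd was called in 3 of the 13 other alternatives. With all libraries, Cebpz, Cebpa, Nr2f6 and Insl6 were not called by edgeR, at 0.20, 0.30, 1.14 and -1.37. DESeq2 called Insl6 lower (-1.33, adjusted p = 0.0259). Without MA-10 replicate 1, a fit that called 65.7% of all genes, edgeR called Cebpa and Nr2f6 higher and Insl6 lower. Their log2 fold changes were then 0.87, 1.99 and -1.67 (edgeR adjusted p = 0.000646, 1.9e-05 and 3.56e-05).

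Among cofactors and other gonadal factors, the 2 genes called were both lower in STARKO1. Of 32 listed, 19 were tested, 2 were called by edgeR (9.04% of all genes, 4.74% lower) and 7 had an unadjusted p under 0.05 (37.6% of all genes), with a median log2 fold change of 0.05. The called genes were Cbx2, a Polycomb subunit needed for gonad formation, at -1.44 (SE 0.316, edgeR adjusted p = 0.0407), and Crem, which encodes cAMP-responsive activators and repressors, at -1.64 (SE 0.355, adjusted p = 0.0399). Both calls were lost in 5 of the 6 fits that leave out a library (adjusted p up to 0.185 for each), all but that without MA-10 replicate 1, and with library size alone and the replicate block. Over those 6 fits the log2 fold changes ran from -1.62 to -1.08 for Cbx2 and from -1.81 to -1.38 for Crem. With all libraries, the corepressor gene Ncor1 was not called by edgeR, at -0.26, nor were Sp3 and Sp1, at -0.46 and 0.11. Without MA-10 replicate 1, edgeR called Sp3 lower (-0.48, adjusted p = 0.00457) and Sp1 higher (0.62, adjusted p = 0.0183), but not Ncor1.

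Known targets of SF-1 and GATA factors went in both directions. Of 20 listed, all were in the table and 18 were tested, with 3 called by edgeR, all lower (9.04% of all genes, 4.74% lower), and 11 at an unadjusted p under 0.05 (37.6% of all genes). The median was 0.06, and -0.11 over the 15 that are neither Star nor among the 7. In 6 of the 18 every STARKO1 library lay above every MA-10 library (21.5% of all genes). In 6 every MA-10 library lay above (21.0%), and in 6 the groups overlapped. The targets named below all had negative log2 fold changes and do not stand for the list. Besides Star, the genes called were Hsd3b1, a steroid dehydrogenase, which fell from 29.8 to 5.19 CPM (log2 fold change -2.52, SE 0.219, edgeR adjusted p = 0.00268), and Inha, the inhibin alpha subunit, which fell from 67.2 to 35.0 CPM (-0.94, SE 0.188, adjusted p = 0.0328). Hsd3b1 was called in all 6 fits that leave out a library and all 13 other alternatives, and Inha in 1 of 6, that without MA-10 replicate 1 (adjusted p up to 0.177 in the others), and 7 of 13. Over the 6 fits the log2 fold change of Inha ran from -1.09 to -0.803. Cyp11a1, the side-chain cleavage enzyme, was at 835 CPM in MA-10 and 439 CPM in STARKO1 (-0.93, SE 0.268, adjusted p = 0.0670), and Hsd3b6 was at 573 and 302 CPM (-0.93, adjusted p = 0.0568). DESeq2 called both lower (adjusted p = 0.0103 and 0.0041), and GC content offsets called Hsd3b6 (edgeR adjusted p = 0.0493). Without MA-10 replicate 1, edgeR called Cyp11a1 and Hsd3b6 lower (adjusted p = 0.000597 and 0.00021). Scarb1, a lipoprotein receptor that takes up cholesterol esters, was not called, at -0.12.

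**Figure D5:**
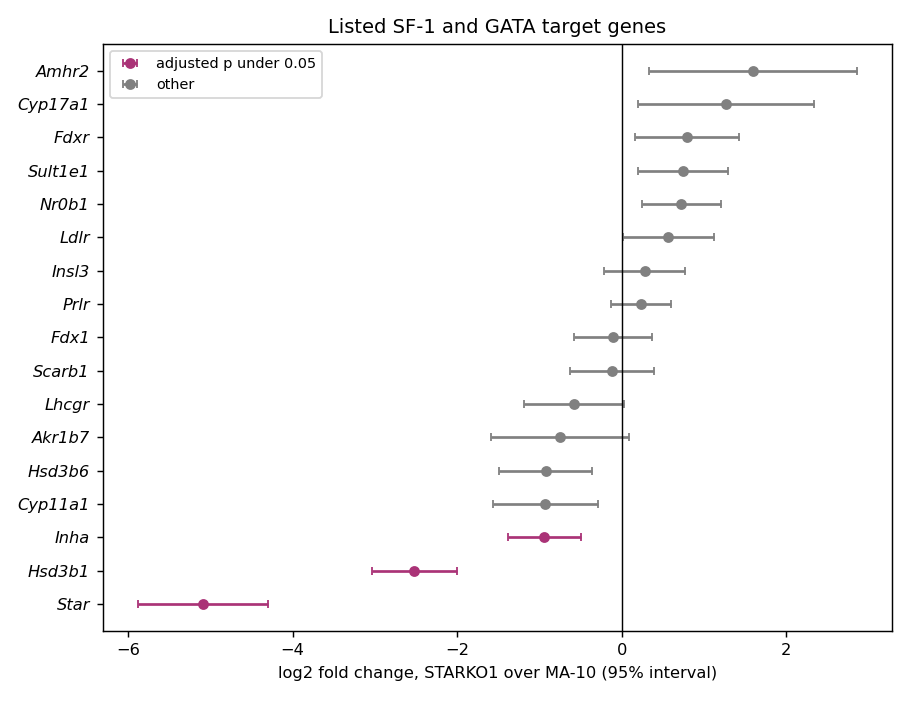
Log2 fold change, STARKO1 over MA-10 (horizontal axis, points with 95% intervals), of 17 of the listed SF-1 and GATA target genes that were tested, with purple for an adjusted p under 0.05 and grey for the others. Star, Hsd3b1 and Inha lie lowest and are the 3 genes called.

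The markers of Leydig cells were present, with all 10 in the table, although Hsd17b3 had only 1 to 4 counts per library. Of these, 2 were called lower, Star and Hsd3b1, beside 4.74% of all genes tested. The summed level was 2042 to 2715 CPM in MA-10 and 1626 to 1704 CPM in STARKO1. The largest falls in CPM were those of Cyp11a1 (835 to 439) and Hsd3b6 (573 to 302), which edgeR with all libraries and TMM alone did not call. Nr5a1, Insl3 and Cyp17a1 had higher means in STARKO1, and the other markers lower ones. Of 9 Sertoli markers 3 were in the table (Rhox5, Gata1 and Rhox8), summing to 484 to 593 CPM in MA-10 and 617 to 648 CPM in STARKO1. Most of the sum was Rhox5 (mean 390 CPM in MA-10 and 559 CPM in STARKO1). Gata1 was also higher in STARKO1 (4.08 and 8.79 CPM), whereas Rhox8 was lower (144 and 65.1 CPM). With all libraries and TMM alone, edgeR called none of the 3. None of 4 granulosa markers was in the table. Of 4 endothelial markers 2 were in the table, summing to 26.4 to 41.5 CPM in MA-10 and 118 to 124 CPM in STARKO1, nearly all from Cdh5, which was called higher, whereas Pecam1 had 2 to 20 counts. Of the lists of adrenal cortex, germ cell, peritubular myoid and macrophage markers, 3 of 6, 1 of 4, 2 of 4 and 2 of 4 genes were in the table, and of these genes Des, a myoid marker, was called lower (log2 fold change -3.00, SE 0.316, edgeR adjusted p = 0.00500). Their summed levels were 86.6 to 205, 2.20 to 3.55, 13.0 to 20.5 and 4.86 to 9.85 CPM in MA-10 and 95.7 to 106, 1.91 to 2.83, 1.72 to 2.59 and 6.37 to 8.56 CPM in STARKO1. The part of any of these in the levels of Nr5a1, Gata4 or Insl3 was not tested.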

How the data were processed

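Total RNA of 3 MA-10 and 3 STARKO1 libraries was sequenced with a stranded kit. The authors deposited estimated counts per gene and library, not scaled for depth. The submitters' processing notes name STAR 2.6.1d, Partek and mm10. The annotation and strand setting of the counting are not given in the sources used here. Every gene had at least 10 counts in total, and 54.2% of genes had a fractional value in 1 or more libraries.

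Estimated counts were rounded, filtered with filterByExpr, scaled by TMM and tested with the quasi-likelihood test of edgeR 4.0.16 (R 4.3.3) over all genes, with Benjamini-Hochberg adjustment and a threshold of 0.05. Alternatives were DESeq2 1.42.0, other scalings and filters, removal of the 50 most abundant genes, thinning, length and GC offsets, a replicate block and leaving out each library. Log2 CPM used a prior count of 2, and 3 counts, taken as the floor, were at most 0.264 CPM in MA-10 and 0.177 CPM in STARKO1, counting error only. The common biological coefficient of variation was 0.291. Coordinates and exon lengths came from GENCODE on GRCm38, which matched 14677 genes by symbol and chromosome. The test was tried on simulated counts with the same dispersion in both groups. That trial did not cover the unequal spread of the MA-10 and STARKO1 libraries.

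Genes named were the members, Star, the called genes of each list with up to 4 abundant others (2 of these are not reported here), and the 3 genes most like Nr5a1 and Insl3. Jak3, A830082K12Rik, Tmem189 and the marker genes named were added after their values were seen. The members and lists were chosen with earlier results of these data known. RefSeq promoter windows were found for 5 of the 7 members in the table.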

Additional observations from a re-analysis of the deposited data

How the results depend on the processing

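Against 1079 genes with edgeR and TMM, DESeq2 called 3385, library size alone 330 (63.6% of them higher, against 47.5%, with the median of all genes moved by 0.43 on the log2 scale), a stricter filter (no library under 10 counts) 695, and an adjusted p under 0.01 179. Leaving out a library gave 89 to 7990 genes: 7990 without MA-10 replicate 1, 511 and 181 without MA-10 replicates 2 and 3, and 89, 135 and 93 without STARKO1 replicates 1, 2 and 3. Of the 7 genes, DESeq2 called 1, leaving out a library gave 0 to 4 (4 without MA-10 replicate 1), and the other alternatives gave 0. Same-numbered libraries deviated with correlations of -0.0165, 0.0455 and 0.0201, so the numbers were not taken to pair them. The replicate block called 234 genes, 232 with gene length offsets and 442 with GC content offsets, and none of the 7.

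Directions that turned belonged to uncalled values. Cebpb was at -0.36 with GC content offsets, -0.34 with these and the replicate block and -0.0169 to 0.22 over left-out libraries. Insl3 was at -0.12 and -0.0461 with GC content offsets without and with the block. Gata4 ran from -0.000449 (without MA-10 replicate 2) to 0.81. With library size alone, Ncor1 was at 0.18, Sp3 at 0.0107 and Scarb1 at 0.25. Scarb1 was at 0.00526 with upper quartile scaling and ran from -0.243 to 0.185 (without MA-10 replicate 1) over left-out libraries, and Sp1 from -0.157 (without MA-10 replicate 2) to 0.618. The difference between the groups, STARKO1 minus MA-10, in the log2 ratio of Insl3 to Nr5a1 ran from -0.42 to 0.0664 over left-out libraries. The causes were not tested. Nr2f1, with 47 to 170 counts per library, is the member that depth limits most, and its MA-10 libraries also had a coefficient of variation of 44.2%.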
